A study of Arabidopsis thaliana with 6 samples.

Results

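The genes nad6 and nad9 of the mitochondrial genome of Arabidopsis thaliana were followed through RNA levels, ribosome footprints and reading frames. The plants were wild type or labelled Rps10 +/-, after a gene for a mitochondrial ribosomal protein. Both genes were chosen by name, as complex I genes without introns, 1 from each arm of the enzyme. They are 2 of the 24 genes with deposited levels, and both had a value in all 6 libraries and in all 3 tables of reading frames. The rule that chose them uses no measured value.

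Complex I, the NADH dehydrogenase of the respiratory chain, takes electrons from NADH and passes them to ubiquinone while protons are pumped across the inner mitochondrial membrane. It is L-shaped, with an arm inside the membrane that pumps protons and an arm in the matrix that carries the electrons. The protein of nad6 belongs to the membrane arm. The protein of nad9 belongs to the matrix arm, near the site where ubiquinone is reduced, and in animals its counterpart is encoded in the nucleus. Both proteins are made on mitochondrial ribosomes inside the organelle, and plant mitochondrial transcripts are commonly edited from C to U before they are read.

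Mitochondria came from the youngest leaves of plants 9 to 10 weeks old, all of ecotype Col-0 and grown in short days of 8 h light and 16 h dark. All mitochondria were treated with chloramphenicol (100 µg/ml), which stalls their ribosomes. The groups were the P3 phenotype and the P2 phenotype of plants labelled Rps10 +/-, and the wild type (WT). RPS10, which lies in the nucleus, encodes a small-subunit protein of mitochondrial ribosomes, and its own RNA was not analysed here. What sets P3 apart from P2 is not described in the labels, and they are phenotypes of 1 mutant. Each group had 1 footprint library and 1 RNA library, and each library pooled 15 mitochondrial preparations. Only the mutant seedlings were grown on kanamycin, and mutant isolations used about 15 g of leaf, against about 30 g for WT, so these conditions and the genotype cannot be told apart. No group had a replicate library, so no test was possible and every ratio below describes these libraries. A difference was called when it was at least 1.5-fold (0.58 on the log2 scale).

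Levels are TPM, which adjust for gene length and sum to 1000000 over the 24 genes of a library, so a value is a gene's part of those 24 and not an amount per mitochondrion. Fewer cells with a transcript and less of it per cell cannot be told apart. Footprint reads on coding sequence (CDS) numbered 48653 in P3, 80146 in P2 and 416254 in WT. Of the mitochondrial footprint reads outside tRNA and rRNA they made up 14.9% in P3, 17.3% in P2 and 62.6% in WT. Their 95% Wilson intervals run between 14.7 and 15.0 for P3, between 17.2 and 17.5 for P2, and between 62.5 and 62.7 for WT. For RNA that part was 46.2% in P3, 47.1% in P2 and 60.4% in WT. The nuclear genome took 1.77% of all footprint reads in P3, 1.90% in P2 and 14.04% in WT, and the part of such RNA from other compartments in the results was not tested. The intervals cover counting error only. Reads per gene were not used here, so the depth behind a single level is unknown.

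Footprints separated nad6 from nad9. The footprint level of nad6 was higher in both mutant phenotypes than in WT, while that of nad9 was about the same in all 3 kinds of plants. nad6 stood at 56646 TPM in P3 and 53949 TPM in P2, against 28436 TPM in WT. Both mutant values lay far above the WT value and close to each other. The log2 ratio of the nad6 footprint level to WT was 0.99 in P3 (1.99-fold) and 0.92 in P2 (1.90-fold). nad9 stood at 48293 TPM in P3 and 47890 TPM in P2, against 51479 TPM in WT. Its log2 ratios to WT were -0.09 in P3 and -0.10 in P2, the smallest distances from 0 among the complex I genes with levels. Both members together held 10.5% of the footprint TPM in P3 and 10.2% in P2, against 7.99% in WT.

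Of the members, nad6 was thus called higher in both phenotypes and nad9 was not called in either. Over the 24 genes, 58.3% were called higher in P3 and 58.3% in P2, and 29.2% were called lower in each, so the call for nad6 is a common one. The median gene had a footprint log2 ratio of 1.32 in P3 and 1.30 in P2, above both members. In the order of the ratios nad6 was at place 14 of 24 in each phenotype, after rps7 (1.11 in P3 and 1.08 in P2), a gene for a small-subunit ribosomal protein. Next came cob (0.26 in P3 and 0.36 in P2), the gene for cytochrome b of complex III, and then nad9 at place 16. Below nad9 lay atp6.1 (-0.35 in P3 and -0.12 in P2), a copy of the gene for subunit a of the ATP synthase. Where the copies share sequence, the counting may have split reads between them. Without replicates the spread that would separate neighbours in this order is unknown.

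The sign for nad6 depended on how whole libraries were scaled. Relative to the median gene, the footprint log2 ratio of nad6 was lower by 0.32 in P3 and 0.38 in P2, and that of nad9 by 1.41 in P3 and 1.41 in P2. With median-of-ratios scaling, which centres each library on its typical gene, the footprint log2 ratio of nad6 was -0.32 in P3 and -0.29 in P2. With TPM multiplied by the part of mitochondrial reads that lay on CDS it was -1.08 in P3 and -0.93 in P2. Under the same scalings nad9 came to -1.41 in P3 and -1.32 in P2, and to -2.17 in P3 and -1.96 in P2, and was then called lower. Median-of-ratios scaling moved the footprint ratio of the median gene by -1.32 in P3 and -1.22 in P2, and CDS scaling moved it by -2.07 in P3 and -1.85 in P2. The distance between the genes is free of such factors and is given further on.

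**Figure D1:**
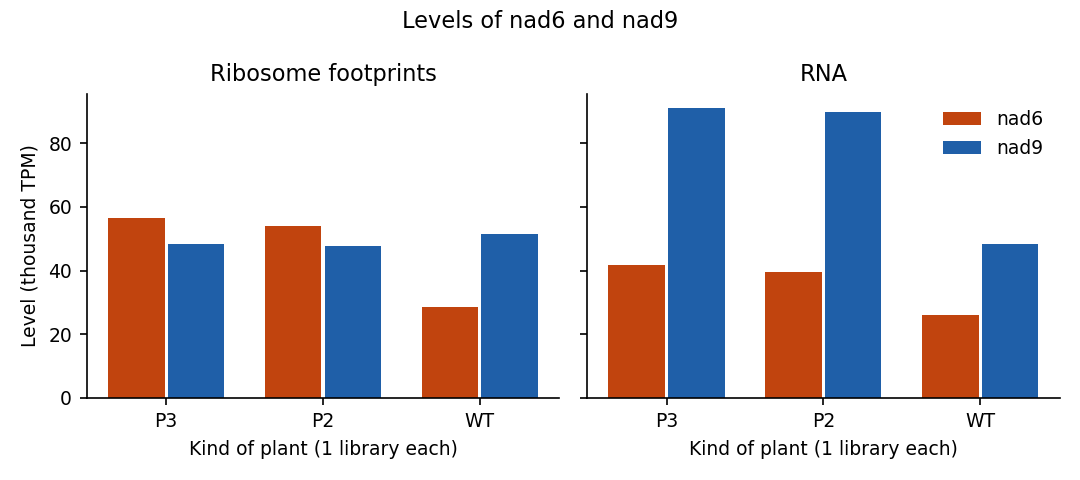
Levels of nad6 and nad9 in units of 1000 TPM (vertical axis) in the P3, P2 and WT libraries, footprints on the left and RNA on the right, with 1 bar per gene and library and no error because each group is 1 library. In footprints nad6 exceeds nad9 in P3 and P2 and lies below it in WT, while in RNA nad9 exceeds nad6 in all 3.

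At the RNA level both genes took a larger part of the 24 genes in the mutant phenotypes, and nad9 more so than nad6. nad9 RNA stood at 91121 TPM in P3 and 89836 TPM in P2, against 48418 TPM in WT, and nad6 RNA stood at 41609 TPM in P3 and 39609.9 TPM in P2, against 26081 TPM in WT. For each gene the mutant libraries lay close together and above the WT library. The RNA log2 ratio of nad9 to WT was 0.91 in P3 (1.88-fold) and 0.89 in P2 (1.86-fold). That of nad6 was 0.67 in P3 (1.60-fold) and 0.60 in P2 (1.52-fold), near the 1.5-fold limit. Both members were therefore called higher in each phenotype. Of the 24 genes 58.3% were called higher in P3 and in P2 and 8.33% lower in each, and the median gene lay at 0.78 in P3 and 0.84 in P2.

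In the order of RNA levels nad9 was the gene at place 3 of 24 in P3 and in P2, after atp9 and atp1 of the ATP synthase, against place 6 in WT. nad6 was at place 10 in P3 and in P2, against place 11 in WT. In the order of the RNA ratios, nad9 lay between tatC (0.99 in P3 and 0.93 in P2), whose protein belongs to a protein transport system, and rps7 (0.88 in P3 and 0.88 in P2). nad6 was followed by atp6.2 (0.43) in P3 and by cox3 (0.41) in P2, the highest genes that were not called. With median-of-ratios scaling the RNA log2 ratio of nad6 was -0.11 in P3 and -0.23 in P2, and that of nad9 was 0.12 in P3 and 0.06 in P2. Neither gene was then called. With CDS-share scaling both genes also lost their calls, nad6 at 0.29 in P3 and 0.24 in P2 and nad9 at 0.53 in P3 and 0.53 in P2. nad6 lost its call as well when atp9, the most abundant RNA of each library, was left out of the total (0.49 in P3 and 0.38 in P2).

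**Figure D2:**
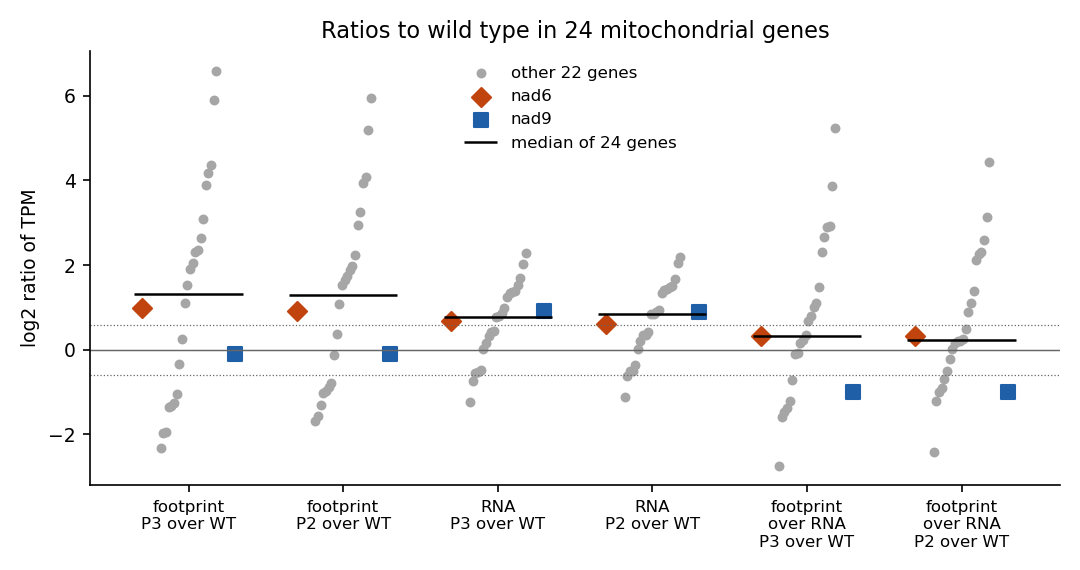
Log2 ratios of TPM to WT (vertical axis) for footprints, RNA and footprint over RNA, in P3 and in P2, with the other 22 genes as grey dots, the median of all 24 as a black line and the 1.5-fold limits dotted. With TPM as deposited nad6 lies above 0 in every column (its sign turns in all of them under median-of-ratios scaling, and in footprints and footprint over RNA under both CDS scalings), at 0.32 for footprint over RNA, while nad9 lies near 0 in footprints and at -1.004 in P3 and -0.996 in P2 for footprint over RNA.

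Footprint level divided by RNA level, often called translation efficiency, was lower for nad9 in both phenotypes and higher for nad6 by less than 1.5-fold. For nad9 it was 0.530 in P3 and 0.533 in P2, against 1.06 in WT. For nad6 it was 1.36 in P3 and 1.36 in P2, against 1.09 in WT. nad6 thus had 2.57 times the value of nad9 in P3 and 2.55 times in P2, against 1.03 times in WT, where the genes were nearly alike. The log2 ratio to WT for nad9 was -1.004 in P3 (2.01-fold lower) and -0.996 in P2 (1.99-fold lower). That for nad6 was 0.32 in P3 and 0.32 in P2 (1.25-fold higher in each), inside the 1.5-fold limit. One member, nad9, was therefore called lower in each phenotype and none higher. Of the 24 genes 29.2% were called lower and 45.8% higher in P3, and 25% were called lower and 37.5% higher in P2.

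In the order of footprint over RNA nad9 was at place 21 of 24 in P3 and in P2, against place 9 in WT. nad6 was at place 9 in P3 and at place 8 in P2, against place 8 in WT. The median gene had 0.963 in P3, 0.869 in P2 and 0.773 in WT, so nad9 lay below the median gene in both mutant phenotypes and above it in WT. Among the ratios to WT, nad9 stood between atp1 (-0.72) and nad4L (-1.21) in P3, and between nad4L (-0.99) and atp4 (-1.20) in P2. The lower efficiency of nad9 was called in P3 under each of 10 alternative treatments of the values, with log2 ratios of -4.44 to -0.61. Most of these treatments scale whole libraries and so move all genes together. Scaling by the CDS part of all reads, which gave -4.44, called 20 of the 24 genes lower in P3 and 21 in P2. With TPM as deposited, 7 were called lower in P3 and 6 in P2. In P2 the lower efficiency of nad9 was called under 9 of 10, and not where cox3 was left out of the footprint totals and atp9 out of the RNA totals (-0.56). With a 2-fold rule in place of the 1.5-fold rule the P2 call is also lost (1.99-fold), while the P3 call is kept (2.01-fold). For nad6 the sign turned under 3 of the 10 in each phenotype, the lowest values being -3.11 in P3 and -2.73 in P2, when levels were scaled by the CDS part of all reads.

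**Figure D3:**
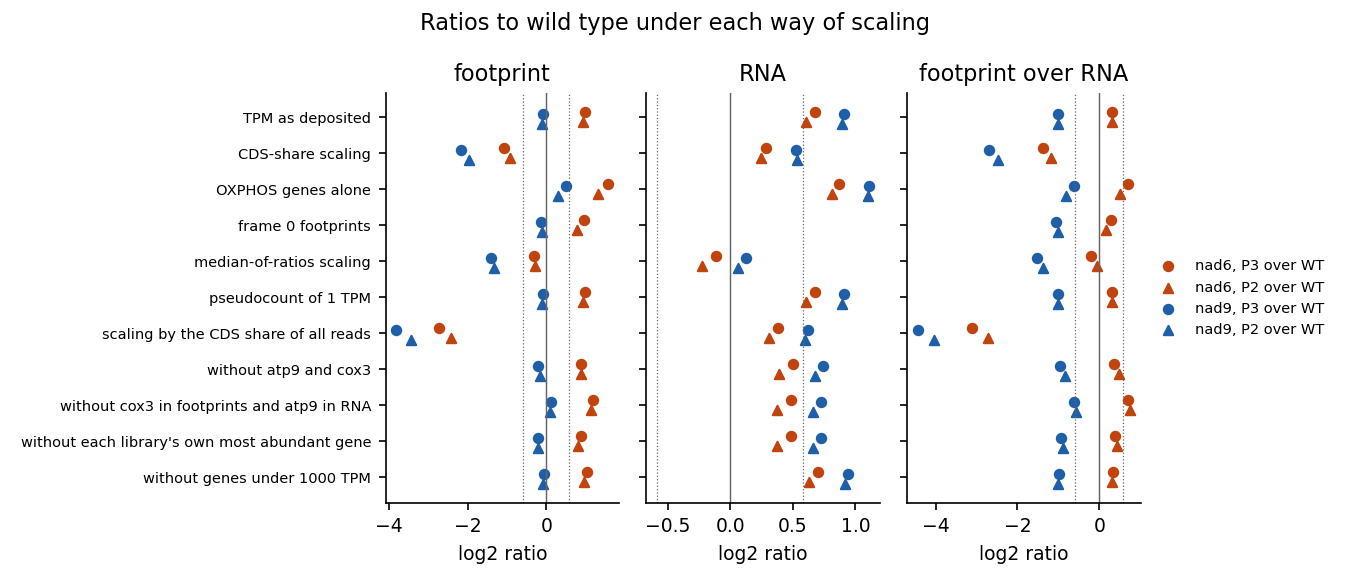
Log2 ratios to WT (horizontal axes) of nad6 and nad9 for footprints, RNA and footprint over RNA under the deposited TPM and up to 10 other treatments (rows, with no frame 0 row for RNA), circles for P3 and triangles for P2, with the 1.5-fold limits dotted. nad6 lies to the right of nad9 in the footprint and footprint over RNA panels and to the left of it in the RNA panel. Apart from the frame 0 and pseudocount rows, each treatment moves both genes by the same amount, so their order could not change there.

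The level of nad6 relative to nad9 compares both genes inside the same library, so no scaling of that library moves it. In footprints nad6 had 1.17 times the TPM of nad9 in P3 and 1.13 times in P2, against 0.552 times in WT. The order of the genes was therefore opposite in the mutant phenotypes and WT. In RNA nad6 had 0.457 times the TPM of nad9 in P3 and 0.441 times in P2, against 0.539 times in WT, so nad9 was the more abundant RNA throughout. The difference of the log2 ratios to WT, nad6 minus nad9, was 1.09 in P3 (2.12-fold) and 1.03 in P2 (2.04-fold) for footprints. It was -0.24 in P3 and -0.29 in P2 for RNA, and 1.32 in P3 and 1.32 in P2 (2.49-fold) for footprint over RNA. As a yardstick, all pairs among the 13 genes of the respiratory chain and the ATP synthase had a median distance of 1.32 in P3 and 1.15 in P2 for footprints, and 1.29 in P3 and 1.12 in P2 for footprint over RNA. A distance like that between nad6 and nad9 was thus usual among such genes.

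**Figure D4:**
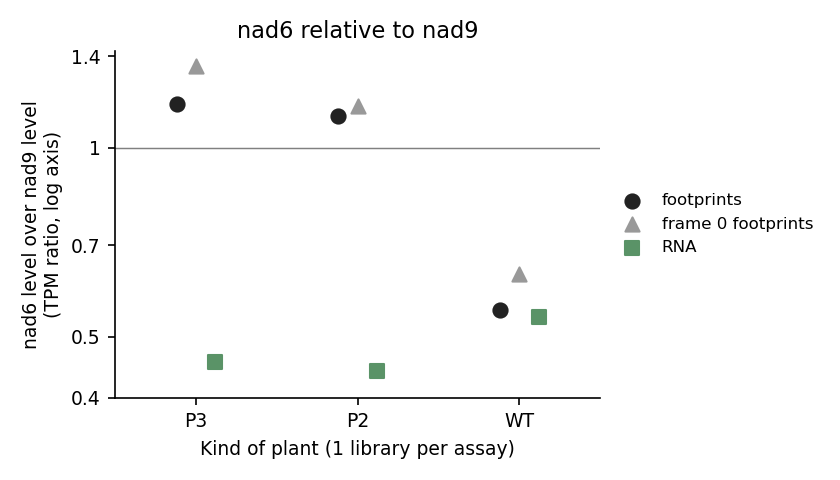
nad6 level over nad9 level (vertical log axis) in P3, P2 and WT for all footprints, for frame 0 footprints and for RNA, 1 point per library. The footprint points lie above 1 in P3 and P2 (1.17 and 1.13) and below it in WT (0.552), while the RNA points lie between 0.441 and 0.539.

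The P3 and P2 libraries gave nearly the same values for both members. The log2 ratio of P3 over P2 was 0.07 for nad6 footprints and 0.07 for nad6 RNA, and 0.01 and 0.02 for nad9. For footprint over RNA it was -0.00067 for nad6 and -0.0084 for nad9. Over the 24 genes the P3 over P2 ratios ran from -0.65 (atp9) to 0.70 (rpl16) for footprints, and from -0.80 (atp9) to 0.79 (matR) for footprint over RNA. For RNA they ran from -0.24 (atp4) to 0.15 (atp9), so P3 and P2 were close in RNA for every gene. P3 and P2 were compared with the same WT libraries, so their ratios to WT share any deviation of those libraries.

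Of the 9 complex I genes listed, 4 had TPM, and the other members of that set were nad3 and nad4L, both for small proteins of the membrane arm. Like nad6 and nad9, they are listed as genes without introns. In footprints 1 of the 4 (nad6) was called higher and 2 (nad3 and nad4L) lower in each phenotype, with a median log2 ratio of -0.57 in P3 and -0.45 in P2, against 3 lower and 0 higher in each after median-of-ratios scaling. The shares over the 24 genes were 58.3% higher and 29.2% lower in each phenotype. In RNA 3 of 4 were called higher and none lower, with a median of 0.73 in P3 and 0.72 in P2, against 1 lower and 0 higher after median-of-ratios scaling. Higher calls in RNA were common, at 58.3% of the 24 genes in each phenotype, with 8.33% called lower. For footprint over RNA 3 of 4 were lower and none higher, with a median of -1.11 in P3 and -0.995 in P2, so nad6 was the member not called. Over the 24 genes 29.2% were lower and 45.8% higher in P3, and 25% lower and 37.5% higher in P2. nad3 had 17203 footprint TPM in P3 and 22248 in P2, against 66237 in WT, and nad4L had 9938 in P3 and 11865 in P2, against 20459 in WT. Both were lower in the mutant phenotypes, on the side of 0 opposite to nad6.

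Inside these 4 genes the parts held by nad6 and nad3 differed between the mutant phenotypes and WT far more in footprints than in RNA. The part held by nad9 differed more in RNA. The part held by nad4L differed more in RNA in percentage points, but more in footprints as a ratio to WT. nad6 held 42.9% of their footprint TPM in P3 and 39.7% in P2, against 17.1% in WT, and 20.4% of their RNA TPM in P3 and 19.6% in P2, against 19.9% in WT. nad9 held 36.6% of their footprint TPM in P3 and 35.2% in P2, against 30.9% in WT, and 44.7% of their RNA TPM in P3 and 44.4% in P2, against 37.0% in WT. nad3 held 13.0% of the footprints in P3 and 16.4% in P2, against 39.8% in WT. nad6 was the highest of the 4 in footprints in both mutant phenotypes and the third in WT, where nad3 was highest. In RNA the order was nad9, nad4L, nad6, nad3 in all 3 kinds of plants.

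The genes most like each member were found by the root mean square difference of log2 TPM over the 6 libraries, after each gene was centred on its own mean in footprints and in RNA. For nad6 they were rps7 (0.096), cox3 (0.20) and cob (0.24), against a median of 0.72 over the other 23 genes. For nad9 they were cob (0.23), nad6 (0.36) and nad4L (0.37), against a median of 0.73. The profile of nad6 thus ran closer to that of rps7 than any profile did to that of nad9. In the TAIR10.1 gene table, used for names and neighbours only, the protein gene listed before nad9 is rpl16, for a large-subunit ribosomal protein. Its footprint log2 ratios to WT were 5.89 in P3 and 5.19 in P2, while those of nad9 were near 0. Of the rpl16 footprints 23.1% in P3, 23.9% in P2 and 27.7% in WT lay in frame 0 (explained below). These were the lowest frame 0 shares of the 24 genes. The largest frame of rpl16 was frame 1, with 65.3% in P3, 61.4% in P2 and 48.1% in WT. The gene table lists nad2 before nad6 and cob after it. In that table each member has 1 row, in the mitochondrial genome, under the locus tags DA397_mgp28 (nad6) and DA397_mgp38 (nad9).

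Footprints of a ribosome that moves codon by codon fall mostly in 1 of the 3 reading frames, here frame 0, and an even spread would put 33.3% in each. For both members frame 0 held the largest share in every library, and its share was lower in the mutant phenotypes. Frame 0 was the largest frame in most genes, in 21 of the 24 in P3, 22 in P2 and 23 in WT. In nad6 frame 0 held 50.4% of the footprints in P3 and 47.1% in P2, against 67.3% in WT. In nad9 it held 43.8% in P3 and 45.5% in P2, against 59.1% in WT. For both genes the mutant values lay near each other and well below WT, yet above an even spread. The frame tables give no read numbers per gene, so no interval can be set on these shares.

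Relative to WT the frame 0 share of nad6 was lower by 16.9 percentage points in P3 and 20.3 in P2. That of nad9 was lower by 15.3 points in P3 and 13.6 in P2. All 24 genes had a lower frame 0 share in each phenotype, with a median difference of -11.3 points in P3 and -12.1 in P2, so both members lay past the median. The difference for nad6 was at place 2 of 24 in P2, counted from the largest loss, and at place 6 in P3. The share of frame 1 differed more than that of frame 2, in the opposite direction. In nad6 frame 1 held 26.6% in P3 and 28.3% in P2, against 16.2% in WT, and in nad9 32.6% in P3 and 28.9% in P2, against 21.1% in WT. Ordered by frame 0 share, nad6 was at place 7 of 24 in P3 and at place 12 in P2, against place 2 in WT. nad9 was at place 14 in P3 and in P2, against place 13 in WT.

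**Figure D5:**
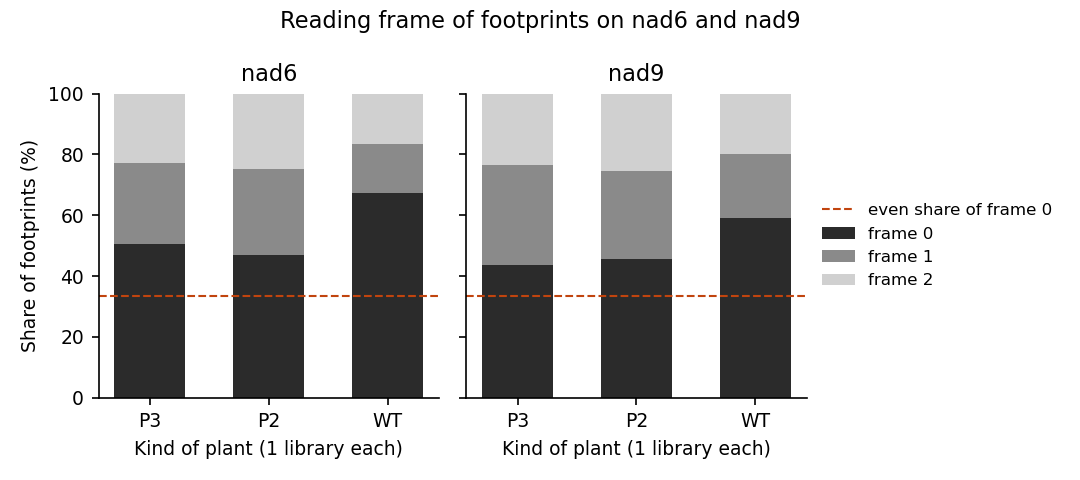
Share of footprints in frames 0, 1 and 2 (stacked bars, percent) on nad6 and nad9 in the P3, P2 and WT libraries, with a dashed line at the even share of 33.3%. Frame 0 is the darkest part and the largest in each bar, from 43.8% (nad9 in P3) to 67.3% (nad6 in WT).

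Multiplying each footprint level by the gene's own frame 0 share gives a rough level of footprints in frame 0, on the assumption that both tables rest on like reads. By that measure nad6 had 28567 TPM in P3 and 25394 TPM in P2, against 19146 TPM in WT. nad9 had 21149 TPM in P3 and 21782 TPM in P2, against 30419 TPM in WT. The order of the genes was again opposite, with nad6 at 1.35 times nad9 in P3 and 1.17 times in P2, against 0.629 times in WT. After these levels were rescaled to 1000000, footprint over RNA of nad9 had a log2 ratio to WT of -1.051 in P3 and -1.004 in P2.

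The frame tables also covered complex I genes without TPM, as 26 rows of genes or exons beside nad6 and nad9. Among the 28 complex I rows frame 0 was the largest frame in 14 rows in P3 and in 14 in P2, against 24 in WT. The median frame 0 share of the 26 other rows was 33.9% in P3, 36.9% in P2 and 56.9% in WT, below both members in each library. The lowest row in P3 and in P2 was nad7_1, at 15.4% and 16.7%, and in WT it was nad2_5, at 21.7%. The highest rows were nad1_5 in P3 (54.6%) and nad2_2 in P2 (53.6%) and in WT (68.7%). nad6 was at place 5 of the 28 in P3 and at place 6 in P2, against place 2 in WT, and nad9 was at place 9 in P3 and at place 8 in P2, against place 13 in WT. Of the 26 other rows 25 had a lower frame 0 share than in WT in each phenotype, and the exception was nad2_5.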

How the data were processed

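Ribosome footprint and total RNA libraries of Arabidopsis leaf mitochondria were sorted by library title into 6 groups with 1 library each. Thawed mitochondria received chloramphenicol (100 µg/ml), and nuclease digestion and rRNA depletion followed, per the labels' protocols. STAR and featureCounts are named, per the submitters' processing notes. Versions, build, annotation and frame assignment were not given in the sources used here. The authors deposited levels as TPM of 24 genes, and frame shares as a fraction of footprints per gene or exon, per the file headers. Numbers of reads per class were deposited with a fraction beside each.

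Log2 ratios were computed without a pseudocount or filter, since no TPM was 0, in Python 3.11.15 with pandas 2.3.3. Shares of reads carry 95% Wilson intervals (scipy 1.17.1). All 24 gene names matched the TAIR10.1 table. The arithmetic was tested on simulated data. The members, gene lists and alternatives were chosen with earlier results of these data known. Named genes are the members, the other complex I genes, the 3 nearest profiles, neighbours in the order of ratios or in the gene table, and the most abundant genes.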

Additional observations from a re-analysis of the deposited data

How the results depend on the processing

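Values below are log2 ratios, for P3 over WT and then P2 over WT unless stated. For nad6 RNA, CDS-share scaling gave 0.29 and 0.24, median-of-ratios scaling -0.11 and -0.23, scaling by the CDS share of all reads 0.38 and 0.31, and leaving out atp9 and cox3 0.50 and 0.39. Leaving out cox3 from footprints and atp9 from RNA, or each library's own most abundant gene, gave 0.49 and 0.38 for it. None of these passed the 1.5-fold limit. For nad9 RNA, CDS-share scaling gave 0.53 and 0.53 and median-of-ratios scaling 0.12 and 0.061, all inside the limit. For nad6 footprints the sign turned with CDS-share scaling (-1.08 and -0.93), median-of-ratios scaling (-0.32 and -0.29) and the CDS share of all reads (-2.73 and -2.42). For nad9 footprints the same settings gave -2.17 and -1.96, -1.41 and -1.32, and -3.82 and -3.45, each past the limit, while totals over OXPHOS genes alone gave 0.49 and 0.29 and leaving out cox3 from footprints and atp9 from RNA gave 0.11 and 0.10. For nad6 footprint over RNA the scalings gave -1.37 and -1.17, -0.21 and -0.065, and -3.11 and -2.73. It was called higher with OXPHOS genes alone in P3 (0.70) and with cox3 left out of footprints and atp9 of RNA (0.71 and 0.75). The lower call of nad9 footprint over RNA was lost in P2 under that last setting (-0.56), within a range of -4.04 to -0.56 over 10 alternatives, and with a 2-fold rule, since it was 1.99-fold. A 2-fold rule also ends the higher calls of nad6 footprints, nad6 RNA and nad9 RNA in each phenotype.

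P3 over P2 was near 0 for every member and measure, and its sign turned for nad6 footprints with CDS-share scaling (-0.15), median-of-ratios scaling (-0.029), the CDS share of all reads (-0.31) and without atp9 and cox3 (-0.00069). It turned for nad9 footprints under the same settings (-0.21, -0.087, -0.37 and -0.059) and with frame 0 footprints (-0.026), and for nad9 RNA with CDS-share scaling (-0.0073). For footprint over RNA it turned with OXPHOS genes alone (0.20 for nad6 and 0.19 for nad9), without genes under 1000 TPM (0.015 and 0.0071) and, for nad6, with frame 0 footprints (0.12).

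Counts of genes moved by at least 1.5 times as follows, higher and then lower. The 2-fold rule is stricter, each scaling moves all genes together, and some settings counted fewer genes. With a 2-fold rule RNA had 8 and 1 in each phenotype, footprints had 4 lower in P2, and footprint over RNA had 2 lower in P2. With CDS-share scaling footprints had 6 and 12 in each, RNA had 9 and 5 in P3 and 8 and 5 in P2, and footprint over RNA had 6 and 16 in each. With median-of-ratios scaling RNA had 5 and 7 in P3 and 6 and 7 in P2, and footprints had 9 higher in P2. With the CDS share of all reads footprints had 3 and 19 in P3 and 3 and 18 in P2, RNA had 5 lower in each, and footprint over RNA had 1 and 20 in P3 and 1 and 21 in P2. With the 13 OXPHOS genes alone footprints had 4 higher in each and 4 lower in P2, RNA had 5 and 1 in P3 and 4 and 1 in P2, and footprint over RNA had 3 higher in P3 and 2 in P2. Without the most abundant genes, in any of the 3 ways, RNA had 3 or 4 lower. With cox3 left out of footprints and atp9 of RNA, footprint over RNA had 14 higher and 2 lower in P2. Of the 4 complex I genes, RNA had 0 higher with the 2-fold rule, CDS-share or median-of-ratios scaling, 1 with the CDS share of all reads and 2 without the most abundant genes, and 1 lower with median-of-ratios scaling. Their footprints had 0 higher under the first 4 of these settings, and 4, 3 and 4 lower under CDS-share scaling, median-of-ratios scaling and the CDS share of all reads, against 1 lower with OXPHOS genes alone. In P2 they had 1 lower with the 2-fold rule and with cox3 left out of footprints and atp9 of RNA. Their footprint over RNA had 1 higher in that last setting in each phenotype and with OXPHOS genes alone in P3, and 1 lower in P2 with the 2-fold rule and with that last setting.

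The nad6 minus nad9 differences were rerun with a pseudocount, which is too small to move levels of this size. The footprint differences were also rerun with each level multiplied by the gene's share in its largest frame. Relative to WT they were then 1.10 in P3 and 0.89 in P2. For footprint over RNA they were 1.34 in P3 and 1.18 in P2, so all stayed past the limit. The reruns of the frame shares could not turn their direction. The largest share was the same share for both genes in every library. Its ratio to the mean of the others rises and falls with it. With 1 library per group there was no replicate to leave out and no test was run. No paired analysis was possible because each group had 1 library. The footprint levels of P3 and P2 rest on fewer CDS reads than those of WT (48653 and 80146, against 416254), so they are less precise, by an amount that TPM does not show.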
